A study of Mus musculus with 4 samples.

Results

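Plagl1 and other imprinted growth genes were followed in the ventricle of mice at 6 months of age. RNA came from 4 samples on 4 Affymetrix arrays, 2 from non-transgenic mice (nTG) and 2 from transgenic mice (TG) with moderate overexpression of serum response factor (SRF) in the heart. SRF regulates transcription through the CArG box, a short A/T-rich element with CC at one end and GG at the other, found near muscle, cytoskeletal and immediate early genes. The labels give neither the promoter of the transgene nor the strain or sex of the mice, and do not say whether a sample is 1 animal or a pool. The spread between samples may therefore be technical.

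The members were Plagl1, Igf2, H19, Dlk1, Cdkn1c, Peg3, Mest, Grb10, Gnas and Igf2r, taken as every probe set that the platform annotation pairs with 1 of these 10 symbols and no other. This gave 17 of 12422 probe sets, which represent 9 genes of 8251 on the array. H19 had no such probe set, since the probe set that carries its symbol also carries Mir675, and it was left out. The group was chosen by the signal of Plagl1, which was among the largest rises in the same comparison of TG with nTG ventricle, so the values below describe the members and are not an independent test of them.

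An imprinted gene is expressed mainly from the copy inherited from 1 parent, set by DNA methylation laid down in the egg or sperm. Many imprinted genes control fetal growth, and most of them are turned down in heart and other tissues after birth. Plagl1 (also called Zac1) encodes a zinc finger transcription factor, expressed from the paternal copy, that is known to act on several other imprinted genes, among them Igf2, H19, Dlk1 and Cdkn1c, and to work with the cardiac factor Nkx2-5 in heart development. Igf2, Dlk1, Peg3 and Mest are likewise expressed from the paternal copy, whereas H19, Cdkn1c, Igf2r and, in most tissues outside the brain, Grb10 are expressed from the maternal copy. Gnas, which encodes the stimulatory G protein subunit that couples receptors to adenylyl cyclase, gives several transcripts with different parental origin.

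The sequences before 2 transcription start sites are shown because 1 belongs to the member that differed most between the groups and the other was the member window with a CArG box. Each runs 5′ to 3′ over the 250 bases before the start, from RefSeq on build GRCm38.p6. Capitals mark the CArG box.
Plagl1, chr10:13090582-13090831, plus strand: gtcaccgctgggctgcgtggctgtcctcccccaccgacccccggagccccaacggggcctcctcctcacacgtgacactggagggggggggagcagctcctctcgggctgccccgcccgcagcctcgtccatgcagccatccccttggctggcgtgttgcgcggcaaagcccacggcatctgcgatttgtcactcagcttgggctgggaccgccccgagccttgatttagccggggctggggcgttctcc
Igf2, chr7:142661272-142661521, minus strand: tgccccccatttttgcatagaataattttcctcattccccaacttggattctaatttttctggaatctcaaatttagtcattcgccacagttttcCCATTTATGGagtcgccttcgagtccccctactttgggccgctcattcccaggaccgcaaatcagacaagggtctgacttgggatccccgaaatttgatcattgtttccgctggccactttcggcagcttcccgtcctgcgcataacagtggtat

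The Plagl1 stretch was 70.4% G and C with 19 CpG dinucleotides, against a median of 52.4% and 6 CpG over all 32851 promoter windows in the table. This was not particular to Plagl1. Stretches of the members ran from 47.6% (Igf2) to 81.2% (Grb10), and from 1 CpG (Igf2) to 40 (Grb10). RefSeq windows, each 250 bases before and 50 after a start, were held for 8 of the member genes, 17 windows in all. Some windows of Mest and of Gnas overlap almost fully. The CArG box (CC, then 6 bases that are A or T, then GG; the pattern reads the same on either strand) was found in 1 of these 17 windows, the Igf2 window shown, and in 1.63% of all windows. Of 15 genes of a list of SRF targets that had a window, 5 held a CArG box in at least 1 window. This counts genes, not windows, so it is not on the same scale as the 1.63%. These are matches of letters in short windows, and binding was not measured.

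Plagl1 was far higher in TG than in nTG ventricle on both of its probe sets. Probe set 92502_at gave a signal of 9.8 and 11.7 on the nTG arrays and 83.3 and 65.0 on the TG arrays. The mean was 10.8 ± 1.34 against 74.2 ± 12.9 (SD, n = 2 each), a ratio of 6.90. On the scale log2(signal + 9), used throughout for differences because it damps noise in dim probe sets, Plagl1 rose by 2.07 ± 0.27 (SE), a 4.19-fold change. Every TG array was above every nTG array.

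The second Plagl1 probe set, 92501_s_at, read 3.7 and 11 in nTG and 47.7 and 37.6 in TG ventricle. Its log2 difference was 1.69, again with no overlap between the groups. It was dim, and fell below the filter that left out the lowest 40% of probe sets by mean log2 signal, which corresponded to a signal of 30.0. With dim probe sets kept in, 92501_s_at was not called (adjusted p = 0.0688 in limma). In nTG ventricle both probe sets lay among the dimmest on the array: 92502_at stood at the percentiles 19.3 and 22.3 of all probe sets, and 92501_s_at at 7.94 and 21.5. In TG ventricle they stood at 60.9 and 55.1, and at 49.4 and 44.0. Probe set 92502_at thus passed the filter through its TG arrays alone. Without detection calls, the nTG values cannot be told apart from background, and the ratio between groups rests on them.

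**Figure D1:**
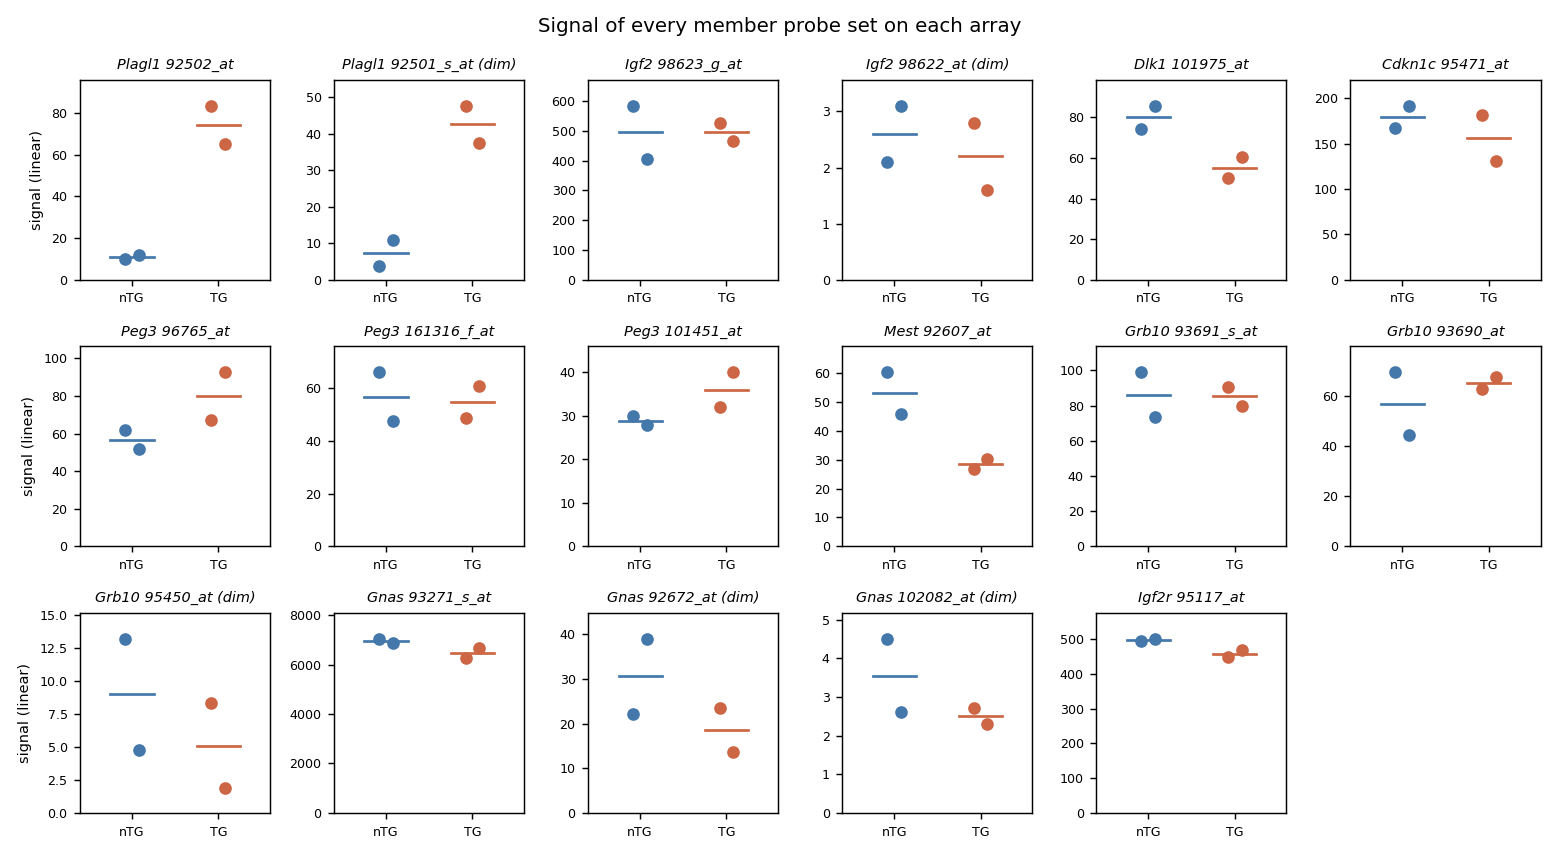
Signal (linear scale from 0) of each of the 17 member probe sets in nTG (blue) and TG (orange) ventricle; points are single arrays, horizontal bars are group means, and "dim" marks probe sets below the filter. Plagl1 is near the bottom of its axis in nTG and at 37.6 or more in TG on both probe sets, whereas Igf2, Cdkn1c and the Grb10 probe sets overlap between groups.

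Among 7453 probe sets tested together with limma (Benjamini-Hochberg adjusted p below 0.05), 4.07% were called higher and 3.86% lower in TG. Of the 17 member probe sets 12 passed the filter, for 9 genes. Of these, 1 was called higher (Plagl1), 0 were called lower, and 1 had a lower value with an unadjusted p below 0.05 in limma (Mest). By the brightest probe set per gene, 12.1% of all genes tested were higher and 12.6% lower at that unadjusted p. As Plagl1 was chosen for this rise, its call adds nothing to the values above. The call ended without TG replicate 1, where the log2 difference was 1.91. Of the 12, 7 had no overlap between groups, 3 with TG higher and 4 with TG lower. Over all tested probe sets 55.9% had none (27.8% with TG higher and 28.1% with TG lower), so a lack of overlap was common on these arrays. The median log2 difference of the 12 was -0.021, and that of all tested probe sets was -0.0092.

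The growth factor Igf2, which drives fetal growth through the receptors Igf1r and Insr, was bright and level on its brighter probe set. Probe set 98623_g_at gave 583 and 407 in nTG and 525 and 466 in TG ventricle. The means were 495 ± 125 and 495 ± 41.7 (SD, n = 2 each), with the TG arrays inside the nTG range. The log2 difference was 0.021 ± 0.18 (SE), and its sign turned under quantile normalization (-0.0080) and when nTG replicate 2 (-0.23) or TG replicate 1 (-0.063) was left out. The other Igf2 probe set, 98622_at, was at 1.6 to 3.1 on all 4 arrays, near the lowest values of the file, too dim to compare the groups. The probe sets thus disagree on how strongly Igf2 was expressed, and the g of 98623_g_at marks probes not unique to 1 transcript.

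Igf2r, the receptor that binds Igf2 and carries it to the lysosome for breakdown, read 494 and 501 in nTG and 449 and 468 in TG ventricle. All TG values were below all nTG values, by a small step: the log2 difference was -0.12 ± 0.10 (SE), between -0.15 and -0.037 over 14 alternative settings. As the groups did not overlap, only a rescaling of the arrays could have turned its sign. Grb10, an adaptor that binds the insulin and IGF1 receptors and restrains growth, had 3 probe sets. The brightest, 93691_s_at, gave 98.9 and 73.6 against 90.5 and 79.9, and 93690_at gave 69.5 and 44.6 against 63.0 and 67.6. For 93691_s_at the TG arrays lay between the nTG arrays, as they did for 93690_at. The third, 95450_at, was dim, at 1.9 to 13.2.

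Mest, a paternally expressed member of the alpha/beta hydrolase fold family that marks mesoderm, was at 60.2 and 45.7 in nTG and at 26.6 and 30.2 in TG ventricle. The groups did not overlap. The log2 difference was -0.72 ± 0.25 (SE), the largest downward value among the tested members, and the 14 alternative settings gave -0.89 to -0.34. Mest was not among the called probe sets.

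Dlk1, a membrane protein of the Notch ligand family that holds preadipocytes undifferentiated, read 74.3 and 85.6 in nTG against 50 and 60.4 in TG ventricle, also without overlap. The log2 difference was -0.47 ± 0.20 (SE), with -0.59 to -0.27 over the 14 alternative settings. Dlk1 and Mest therefore stood opposite in sign to Plagl1, without a call in the test over all probe sets.

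Cdkn1c, the cyclin-dependent kinase inhibitor p57, read 167 and 192 in nTG and 182 and 131 in TG ventricle. The groups overlapped, and the log2 difference was -0.20 ± 0.19 (SE). Leaving out TG replicate 2, the lowest array, moved it to 0.023. Cdkn1c was the member known as a Plagl1 target and cell cycle brake with a well measured signal on all arrays, and its level did not differ beyond the spread between them.

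Peg3, a large zinc finger protein expressed from the paternal copy, had 3 probe sets that disagreed. Probe set 96765_at had 61.7 and 51.6 against 67.1 and 92.6, a log2 difference of 0.43 ± 0.22 (SE). Probe set 101451_at had 29.9 and 27.9 against 32.1 and 40, a difference of 0.24 ± 0.26, while 161316_f_at had 66.1 and 47.6 against 48.6 and 61.1, a difference of -0.037 ± 0.24. The first and the second did not overlap between groups, and the last did. None of the 3 was called in limma. Leaving out single arrays gave 0.22 to 0.63 for 96765_at and 0.12 to 0.37 for 101451_at. Affymetrix marks with f, g or s probe sets whose probes are not unique to 1 transcript, so 161316_f_at may carry signal of related sequences. Such a mark is also on Igf2 98623_g_at, Plagl1 92501_s_at, Grb10 93691_s_at and Gnas 93271_s_at.

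Gnas was the brightest member. Probe set 93271_s_at gave 7045 and 6881 in nTG and 6275 and 6682 in TG ventricle, above the percentile 99.7 on every array. The TG arrays were both below the nTG arrays, with a log2 difference of -0.10 ± 0.061 (SE) that became 0.010 under quantile normalization. The other Gnas probe sets, 92672_at at 13.7 to 39.0 and 102082_at at 2.3 to 4.5, were below the filter. The annotation does not say which transcript of the locus each of them reads.

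**Figure D2:**
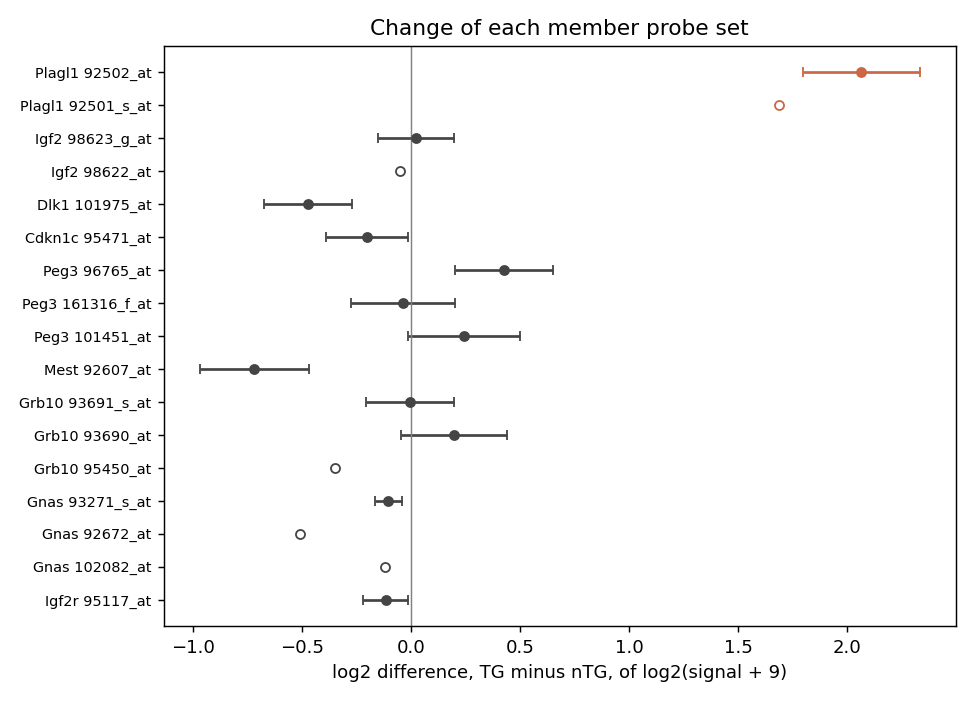
Log2 difference, TG minus nTG, of every member probe set; filled points with bars are tested probe sets with their moderated standard error, open points are dim probe sets without one, and Plagl1 is in orange. Apart from Plagl1 at 2.07 and 1.69, tested members lie between -0.72 (Mest) and 0.43 (Peg3).

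The profile over the 4 arrays most like that of Plagl1 was sought among the 5685 genes whose brightest probe set passed the filter. Likeness was the Euclidean distance between log2 values centred on their mean. Dimmer genes could not appear. The nearest 5 were Postn (distance 0.13), Procr (0.14), Pus1 (0.19), Ccn2 (0.20) and Myl1 (0.24). Postn is a matrix protein of activated fibroblasts, Procr the protein C receptor, Pus1 a pseudouridine synthase, Ccn2 a matricellular growth factor and Myl1 a light chain of fast skeletal myosin. Procr had the dimmest nTG level of these, 24.9 and 23.8 against 143.9 and 110.0 in TG. A likeness over 4 arrays in 2 groups mostly says that these genes rose by a similar factor with TG replicate 1 above replicate 2. None of the 5 is an imprinted gene of the lists used here.

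Other imprinted genes were taken from a list of 67, of which 34 were on the array with a symbol of their own and 23 passed the filter. By the brightest probe set of each gene, 2 were called higher and 0 lower in limma, and 21 did not pass. The background for the same rule was 4.26% higher and 4.08% lower of 5685 genes. At an unadjusted p below 0.05 the counts were 6 higher and 2 lower, where the shares over all genes tested were 12.1% higher and 12.6% lower. The median log2 difference was 0.096, against -0.0046 over all genes tested. Decorin (Dcn), a matrix proteoglycan of fibroblasts that is imprinted in the mouse placenta, rose from 3204 and 3177 to 4665 and 4569, by 0.53 ± 0.062 (SE; adjusted p = 0.00507 in limma). Pon2, a paraoxonase of the imprinted cluster around Peg10, rose from 122 and 143 to 247 and 246, by 0.86 ± 0.14 (adjusted p = 0.0169 in limma). The call of Pon2 ended when TG replicate 1 or TG replicate 2 was left out (adjusted p up to 0.0669 over the alternatives), and neither call held when the trend of variance in limma was dropped.

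The genes below the threshold ran in both directions. Gatm, an enzyme of creatine synthesis, had 62.8 and 86.9 in nTG and 114 and 130 in TG ventricle. Sgce, a sarcoglycan expressed from the paternal copy, had 255 and 208 against 277 and 334. Kcnq1, a potassium channel subunit whose locus holds the control region for Cdkn1c, had 179 and 159 against 91.7 and 124 on its brightest probe set, but 119 and 116 against 120 and 95.3 on the other. The largest difference among the tested genes that were not called was that of Ddc, an amino acid decarboxylase beside Grb10, at -0.73 ± 0.25 (SE). The dim organic cation transporter Slc22a2, close to Igf2r, had a larger one, -1.18, from 53.0 and 34.7 to 14.7 and 13.2, below the filter and without a test.

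**Figure D3:**
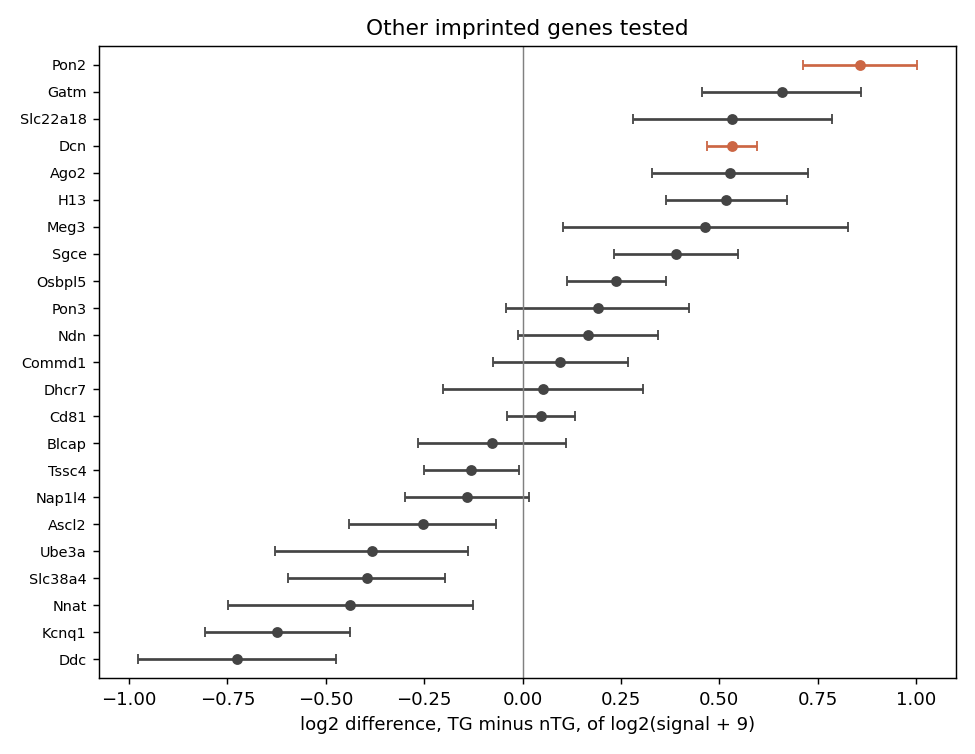
Log2 difference, TG minus nTG, of 23 imprinted genes that are not members and passed the filter, each by its brightest probe set, with the moderated standard error as bars; genes called by limma are in orange. Dcn and Pon2 are the called genes, and the others scatter on either side of 0 from -0.73 (Ddc) to 0.66 (Gatm).

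Imprinted genes lie in clusters, and the nearest 3 measured genes on each side of every member were taken from the RefSeq gene order. Nearest means nearest among genes measured here, which can lie well outside the imprinted cluster. On either side of Plagl1, the genes Sash1, Utrn, Sf3b5, Ltv1, Hivep2 and Vta1 had log2 differences from -0.033 to 0.65, and 0 of the 6 passed limma, the lowest adjusted p being 0.179 (1 had an unadjusted p below 0.05). Utrn, which encodes the dystrophin relative utrophin, had the highest of these, from 30.2 and 22.9 to 49.9 and 43.2. Of the 6, 5 had no overlap between groups, each with TG higher, where 27.8% of all tested probe sets did, and their median log2 difference was 0.32. None of them came near the 2.07 of Plagl1. Beside Dlk1, the maternally expressed noncoding RNA Meg3 read 29.4 and 72.8 in nTG and 77.9 and 59.8 in TG ventricle, with an nTG spread wider than the difference. Beside Cdkn1c, the imprinted genes Cd81, Tssc4, Kcnq1, Slc22a18 and Nap1l4 had differences from -0.62 to 0.53, and 0 of the 6 neighbours passed limma (1 with an unadjusted p below 0.05).

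Over all members the neighbours came to 54 genes, of which 3 were called higher (Lsp1, Ube2h and Ctsz), 2 lower (Mrpl23 and Plg) and 49 did not pass, with a median log2 difference of -0.040. The shares over all genes tested, 4.26% higher and 4.08% lower, are close to these counts. The largest of these was Plg, plasminogen, a liver product, which lies near Igf2r. It fell by 2.59 on the log2 scale, from 165 and 295 to 24.9 and 34.2, and kept its call in each of 14 alternative settings. The other 4 calls each ended when single arrays were left out, with adjusted p in limma up to 0.147 for Lsp1, 0.141 for Ube2h, 0.0956 for Ctsz and 0.155 for Mrpl23 over the alternatives. The dimmer probe set of Ube2h, with a log2 difference of 0.097, was not called.

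Genes on which Plagl1 is reported to act, or with which it is reported to work, were listed apart from the members. Of 10 listed, 6 were tested, and 1 rose while 5 did not pass. The natriuretic peptide Nppa, whose promoter Plagl1 activates together with Nkx2-5, is also an SRF target and rose from 461 and 412 to 2024 and 1879. Nkx2-5 itself had 745 and 798 in nTG and 973 and 976 in TG ventricle, a difference of 0.33 ± 0.091 (SE) that was not past limma (adjusted p = 0.0760). The insulin-responsive glucose transporter Slc2a4, for which Plagl1 control in cardiomyocytes has been reported, was level, with 1537 and 1447 against 1523 and 1478. The probe sets of Cdkn1a, the p21 kinase inhibitor, disagreed. The brightest, which the counts of genes use, had 155 and 95.9 against 129 and 162, with overlapping groups. The dimmer one had 60.9 and 75.3 against 146 and 119.9, without overlap, and rose by 0.88 ± 0.19 (SE; adjusted p = 0.0376 in limma). That call ended with dim probe sets kept in, without the trend of variance, and without nTG replicate 1, TG replicate 1 or TG replicate 2 (adjusted p up to 0.193 over the alternatives). The receptor Adcyap1r1 and the nuclear receptor Pparg were below the filter, and the family members Plag1 and Plagl2 were not analysed here. Of 17 tested genes of the SRF target list, 9 rose and 1 fell, against shares of 4.26% and 4.08% over all genes tested.

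Of the genes that carry or buffer the Igf2 signal, 12 of 23 listed were tested, and 2 rose, 0 fell and 10 did not pass in limma (3 higher and 2 lower at an unadjusted p below 0.05). Over all genes tested, 4.26% were called higher and 4.08% lower, and 12.1% and 12.6% were so at the unadjusted p. Igf1r, the receptor through which Igf2 signals, rose from 248 and 244 to 479 and 368, by 0.75 ± 0.15 (SE; adjusted p = 0.0298 in limma). Igfbp6, a binding protein with preference for Igf2, rose from 325 and 373 to 526 and 573, by 0.64 ± 0.12 (adjusted p = 0.0235 in limma). The call of Igf1r ended without nTG replicate 1, nTG replicate 2 or TG replicate 1 (adjusted p up to 0.124), and that of Igfbp6 without nTG replicate 1 or TG replicate 2 (up to 0.106 over the alternatives). Igfbp2 had 69.5 and 62.6 against 39.6 and 35.9, and was not called. The insulin receptor Insr and the adaptors Irs1 and Irs2 were below the filter.

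Cdkn1c and Plagl1 are known as brakes on the cell cycle. Of 25 listed cell cycle genes 18 were tested, and 1 rose, 0 fell and 17 did not pass in limma (3 higher and 1 lower at an unadjusted p below 0.05). The shares over all genes tested were 4.26% called higher and 4.08% lower, and 12.1% and 12.6% at the unadjusted p. Cyclin D2, Ccnd2, rose from 79.6 and 60.7 to 166 and 172, by 1.18 ± 0.18 (SE; adjusted p = 0.0131 in limma). Of 14 alternative settings, the call ended in 1, where the trend of variance was dropped (adjusted p = 0.0596 in limma). Its partner kinase Cdk4 had 595 and 623 against 464 and 473 on its brightest probe set. The other Cdk4 probe set read 71.8 and 65.7 against 154.6 and 69.7, with overlapping groups and the opposite sign. Mcm2, part of the replication helicase, had 29.7 and 55.2 against 75.3 and 76.5. None of these was past the test. Cdkn1b, a further CIP/KIP inhibitor, overlapped between the groups, and the probe sets of Cdkn1a differed in call as given above. Of the listed genes that set or read imprints, 5 were tested and 0 passed in limma, nor did any have an unadjusted p below 0.05. The DNA methyltransferase Dnmt1 read 149 and 149 in nTG and 140 and 156 in TG ventricle, and Trim28, a corepressor that protects imprints, 905 and 917 against 1029 and 1046.

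**Figure D4:**
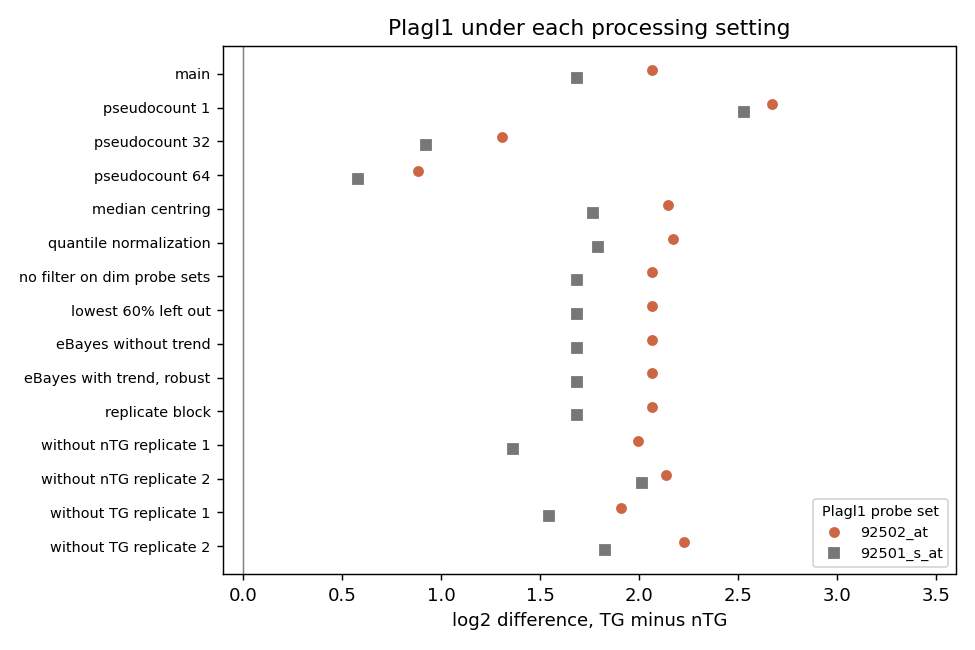
Log2 difference, TG minus nTG, of the Plagl1 probe sets 92502_at (circles) and 92501_s_at (squares) under the main and each alternative setting. All values are above 0, and the pseudocount moves them most, from 0.88 to 2.67 for 92502_at and from 0.58 to 2.53 for 92501_s_at.

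The size of the Plagl1 rise depended on the pseudocount, since its nTG signal is close to the value of 9 that was added. With 1 added the log2 difference of 92502_at was 2.67, with 32 it was 1.31 and with 64 it was 0.88. Between scalings it moved little, with 2.15 after median centring and 2.17 after quantile normalization. Leaving out single arrays gave 1.91 to 2.23 for 92502_at and 1.36 to 2.02 for 92501_s_at. The direction was upward in each of these settings on both probe sets. Without overlap between the groups, no pseudocount and no single array left out could have turned it.

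The tissue was checked with markers. Cardiomyocyte genes were the brightest list, with a summed signal of 60527 to 60717 in nTG and 47805 to 48783 in TG ventricle, and Myh6 and Myl2 were strong on every array. Of the cardiomyocyte genes 5 of 7 tested fell and 0 rose, and 0 were higher and 7 lower at an unadjusted p below 0.05 in limma. The calls of Atp2a2, Myh6, Myl2 and Tnnt2 ended after median centring, after quantile normalization and when single arrays were left out, and that of Tnni3 ended after quantile normalization and without the trend of variance. Over the alternatives the adjusted p in limma reached 0.509 for Myh6 and 0.573 for Myl2. Of the atrial genes 2 of 3 tested rose and 0 fell, and the summed signal of 4 genes was 812 and 969 in nTG against 3116 and 2785 in TG. These were Nppa, described above, and Myl7, an atrial myosin light chain, with 177 and 260 against 616 and 531. Sln, also of the atrial list, was dim, at 6.6 to 22.8. Hepatocyte genes moved with the groups: 6 of 8 tested fell and 0 rose, and the summed signal of 14 genes was 2688 and 5131 in nTG and 355 and 386 in TG. Fibroblast genes rose in 8 of 11 cases (summed signal 6023 to 6354 against 9316 to 9748) and macrophage genes in 4 of 8 (2214 to 2489 against 3697 to 3735), each with 0 lower. At an unadjusted p below 0.05 in limma, 0 hepatocyte genes were higher, and 2 fibroblast and 0 macrophage genes were lower. Of 4 tested adipocyte genes, Adipoq and Lpl fell (summed signal of 7 genes 4799 to 5109 against 3504 to 3536). Smooth muscle genes summed to 975 and 1019.6 in nTG against 2108.3 and 2195.8 in TG, with 1 of 4 tested called higher and 0 lower. Mesothelial and epicardial genes had 275.4 and 284.3 against 560.6 and 547.5, with 1 of 3 higher and 0 lower. Skeletal muscle genes had 4713.5 and 4907.8 against 7094.5 and 6405.6, with 1 of 9 higher and 2 lower. At an unadjusted p below 0.05 in limma 2 were higher and 3 lower. The median log2 difference of the tested genes was -0.074, so the rise of the sum was not shared across the list. Over all genes tested, 4.26% were called higher and 4.08% lower, and 12.1% and 12.6% were so at the unadjusted p. In a whole ventricle, fewer cells of a type and less RNA per cell cannot be told apart. Y-linked Uty had 32.1 and 33.2 in nTG and 8.3 and 11 in TG ventricle, Eif2s3y 55.2 and 51.7 against 27.6 and 24.4, and Xist 101 and 86.4 against 124 and 148. Uty was below the filter. Of the 2 sex-linked genes tested 0 were called, with 1 higher and 1 lower at an unadjusted p below 0.05 in limma. No marker named here was listed at 0. Cardiomyocyte, atrial, liver, fibroblast, macrophage, adipose, smooth muscle and mesothelial genes thus differed between the groups. Skeletal muscle genes moved in both directions, and sex-linked genes differed in signal without a call. The part of these differences in the values of Plagl1, Mest, Dlk1 and the other members was not tested.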

How the data were processed

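Biotin-labelled total RNA was hybridised to Affymetrix arrays, per the labels. The deposited value of a probe set on an array is a linear signal intensity, scaled by the authors to a common mean, as found from the values. With controls left out, the mean without the highest 2% and the lowest 2% was 148.7 to 148.9 on every array. Signal software: not given in the sources used here. Array medians were 49.1 to 54.0. Of 12488 probe sets, 66 controls were left out. 10833 had 1 gene symbol, 396 several (unnamed) and 1193 none. A change shared by most RNA would not be visible after such scaling.

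Values were transformed to log2(signal + 9), where 9 is the 20th percentile rounded. The lowest 40% by mean log2 signal over the 4 arrays were left out. The comparison used lmFit and eBayes (trend) in limma 3.58.1 under R 4.3.3, two-sided, over 7453 probe sets, with 2 residual and 5.05 prior degrees of freedom. The number of arrays limits the precision. The fit was tested on simulated data. The brightest probe set stood for a gene in lists. Named were all members, called genes of each list (at most 8), otherwise those with the largest difference up to 3, the brightest markers, and the 5 nearest profiles to Plagl1. Alternatives were other pseudocounts, scalings, filters, variance models, a looser threshold, a replicate block and single arrays left out. A GC-rich Plagl1 binding sequence was also searched in promoters and is not reported here. Further list genes named as examples, and the CArG count among SRF targets, were chosen after their values were seen. Members and lists were chosen with earlier results of these data known. Same-numbered replicates deviated with a correlation of -0.060, so the numbers were not taken to pair the samples.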

Additional observations from a re-analysis of the deposited data

How the results depend on the processing

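Probe sets called in limma with Benjamini-Hochberg adjustment were 303 higher and 288 lower in the main setting. They were 172 and 157 with dim probe sets kept in, 44 and 34 with eBayes without a trend, and 477 and 484 at an adjusted p threshold of 0.10. After median centring they were 397 and 197. Leaving out single arrays gave 125 to 232 higher and 158 to 191 lower. The 1 member called, Plagl1 92502_at, was below the filter with a pseudocount of 1 or with the lowest 60% left out (0 called), and leaving out single arrays gave 0 to 1. For the other imprinted genes the 2 higher calls became 0 with eBayes without a trend, and 1 to 2 when single arrays were left out; 1 was lower at the threshold of 0.10. A replicate block, used although the numbers do not pair the samples, gave 348 higher and 345 lower, and left the members called higher at 1 and the other imprinted genes at 2.

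Some members with small differences changed sign. After median centring and quantile normalization Peg3 161316_f_at had 0.043 and 0.040, and Grb10 93691_s_at 0.074 and 0.011. Quantile normalization also gave -0.0080 for Igf2 98623_g_at and 0.010 for Gnas 93271_s_at. Leaving out single arrays gave -0.23 to 0.28 for Igf2 98623_g_at, -0.43 to 0.023 for Cdkn1c, -0.24 to 0.17 for Peg3 161316_f_at, -0.20 to 0.19 for Grb10 93691_s_at and -0.080 to 0.47 for Grb10 93690_at. The cause was not tested. With 2 arrays a group and no detection calls, signals near 9 limit what can be said of nTG Plagl1 and of the 5 dim member probe sets.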
